A study of Drosophila melanogaster with 2 samples.

Results

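The genes described are the nuclear transfer RNA (tRNA) genes of Drosophila melanogaster, chosen as every gene of biotype tRNA that the Ensembl release 115 annotation (BDGP6.54, the dm6 assembly) places on a nuclear chromosome. There are 290 of them among 18164 annotated nuclear genes on the 6 sequences that carry peaks, and all 290 have the same symbol and coordinates in the Release 6 RefSeq annotation. They were read against chromatin immunoprecipitation with sequencing (ChIP-seq) of CrebA, a CREB3-type transcription factor with a basic leucine zipper, in whole wandering larvae of the third instar. The CrebA-MiMIC-GFP line carries an eGFP exon inside an intron of CrebA, so that the gene makes a CrebA-GFP fusion protein, and larvae of both sexes were pooled. Per the labels, sonicated chromatin was precipitated with an antibody against GFP, although the antibody field itself reads CrebA. There is 1 group of 2 biological replicates, labelled 4 and 2, with no second genotype or condition, and whole larvae mix all tissues, so a peak cannot be placed in a cell type. A replicate label names a separate biosample, and the spread between the replicates is the only error that the design gives.

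A nuclear tRNA gene is transcribed by RNA polymerase III from a promoter that lies inside the gene, where the A box and the B box are bound by the general factor TFIIIC, which in turn places TFIIIB just upstream of the start. The transcript is cut at both ends, spliced in a few families, heavily modified and charged with its amino acid. Fly tRNA genes occur as many copies, often identical, singly or in clusters. Genes whose symbols give the same amino acid label and anticodon form an anticodon family here, written as both. Thus tRNA:Gln-TTG genes make glutamine tRNAs with the anticodon TTG in DNA letters. CrebA is known as an activator of RNA polymerase II genes for the secretory pathway.

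The following 4 pairs of tRNA genes are shown first, each a gene with a strong summit followed by a gene of the same family with none in the pooled list. The summit is the single base at which the authors placed the top of a peak. Each run holds the 60 bases before the gene and then the whole gene on its own strand (Release 6 RefSeq sequence), and the capitals mark the core of the B box, found as GTTCNANNC.
tRNA:Tyr-GTA-1-8: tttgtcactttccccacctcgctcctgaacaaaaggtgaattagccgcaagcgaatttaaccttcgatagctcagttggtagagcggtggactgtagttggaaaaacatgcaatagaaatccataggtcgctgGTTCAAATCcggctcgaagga
tRNA:Tyr-GTA-1-2: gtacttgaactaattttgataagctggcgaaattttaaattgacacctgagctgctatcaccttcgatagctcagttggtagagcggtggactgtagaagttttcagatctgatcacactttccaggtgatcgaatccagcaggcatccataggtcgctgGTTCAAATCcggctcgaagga
tRNA:Gln-TTG-1-3: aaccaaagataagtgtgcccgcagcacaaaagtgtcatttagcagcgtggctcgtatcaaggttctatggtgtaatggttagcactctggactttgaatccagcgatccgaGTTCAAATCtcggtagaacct
tRNA:Gln-TTG-1-1: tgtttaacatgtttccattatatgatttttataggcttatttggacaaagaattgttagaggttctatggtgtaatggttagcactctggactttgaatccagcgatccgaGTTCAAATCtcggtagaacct
tRNA:Pro-TGG-1-2: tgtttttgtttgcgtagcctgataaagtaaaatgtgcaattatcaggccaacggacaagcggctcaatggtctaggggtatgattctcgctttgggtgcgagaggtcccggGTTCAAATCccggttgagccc
tRNA:Pro-TGG-1-3: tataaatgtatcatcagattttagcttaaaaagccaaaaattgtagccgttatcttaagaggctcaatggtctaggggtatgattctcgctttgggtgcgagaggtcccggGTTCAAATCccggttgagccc
tRNA:Gln-CTG-2-3: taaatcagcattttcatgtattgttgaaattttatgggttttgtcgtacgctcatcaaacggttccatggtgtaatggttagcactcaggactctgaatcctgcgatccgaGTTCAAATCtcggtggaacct
tRNA:Gln-CTG-2-1: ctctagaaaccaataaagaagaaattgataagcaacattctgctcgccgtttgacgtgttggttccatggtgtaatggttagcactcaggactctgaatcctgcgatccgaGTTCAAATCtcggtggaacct

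In 3 of the 4 pairs the 2 genes are the same to the last base, with 0 mismatches. Of the bases before the gene, 15 of 60 matched between the Gln-TTG genes, 22 of 60 between the Pro-TGG genes and 15 of 60 between the Gln-CTG genes. The pairs were chosen to differ in their summit, and no copies that both have or both lack one were compared. They therefore do not show whether the gene or the bases before it bear on the summit. The Tyr-GTA genes hold introns of different length, which make one run 154 and the other 181 bases long, and 17 of their 60 bases before the gene matched. Gln-TTG-1-3 (chr3R:26947512-26947583, minus strand, between genes) has its summit inside the gene at base 118 of the printed run, while Gln-TTG-1-1 lies on 3L (chr3L:11801471-11801542, minus strand). Pro-TGG-1-2 (chr3R:17619961-17620032, plus strand, between genes) has its summit 34 bp before the gene, at base 27 of the run. Its copy Pro-TGG-1-3 (chr3R:17631679-17631750, plus strand) stands in the same cluster, in an intron of CG43175. The summits of Tyr-GTA-1-8 (chr3R:8669081-8669174, minus strand) and Gln-CTG-2-3 (chr2L:2009538-2009609, plus strand, between genes) lie farther upstream than the run reaches, 156 and 150 bp before the gene. Tyr-GTA-1-2 is on 2L (chr2L:2459924-2460044, minus strand) and Gln-CTG-2-1 on X (chrX:3819699-3819770, plus strand).

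A larger share of tRNA genes had a summit than of any other class of genes in the annotation with 10 or more members. Within 200 bp of the gene start, 53 of 290 tRNA genes (18.3%, Wilson 95% interval 14.3 to 23.1) had a summit of the optimal list. Over all nuclear genes the share was 2.61%. The optimal list holds the 2238 peaks that the authors kept after a threshold on the irreproducible discovery rate (IDR), which measures how well peak ranks repeat. Not every peak in it had a summit within 200 bp in both replicates: 95% of those at tRNA genes and 95.5% of the other nuclear ones did. In the pooled relaxed list, 29999 peaks called on both replicates together without that threshold, 140 tRNA genes (48.3%, interval 42.6 to 54) had a summit, against 12.7% of all nuclear genes. Protein-coding genes stood at 2.57% and 12.6% by the same measure, or at 3.61% and 15.4% when any of their annotated start sites was allowed. Among the other classes of non-coding genes, 4 of 260 miRNA genes (1.54%), 53 of 3001 other non-coding RNA genes (1.77%), 1 of 269 snoRNA genes (0.372%), 1 of 32 snRNA genes (3.12%) and 0 of 99 rRNA genes had an optimal summit. Of the 5 annotated tRNA pseudogenes, 1 had one. The intervals cover counting error only, and neighbouring tRNA genes share summits, so that genes are not independent units.

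**Figure D1:**
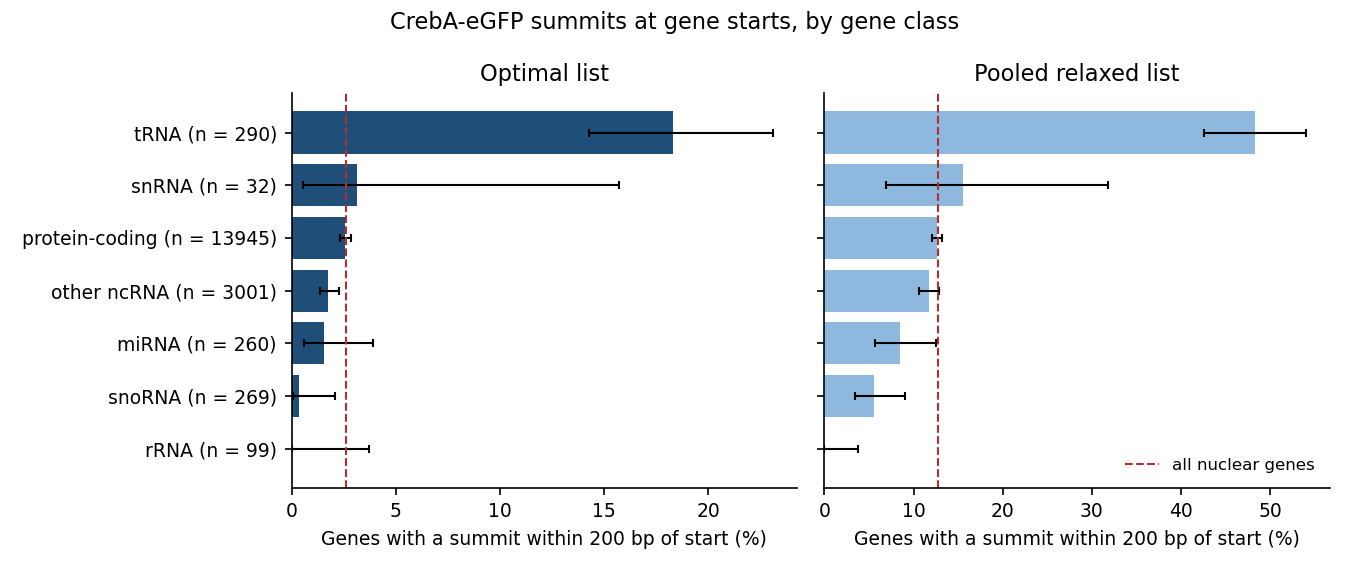
Share of genes (%) with a summit within 200 bp of the gene start, by gene class, in the optimal list (left) and the pooled relaxed list (right). Bars are shares, lines are Wilson 95% intervals and the dashed line is the share over all nuclear genes: tRNA genes reach 18.3% and 48.3%, against 2.61% and 12.7% over all genes.

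Counted as summits rather than genes, and keeping the strongest summit of each gene, the 53 tRNA genes had 40 distinct optimal summits, 13 of which were the strongest for 2 genes. With every summit kept, 41 optimal summits lay within 200 bp of a tRNA start, 14 of them of 2 starts and 0 of more. The 40 were 1.81% of the 2209 nuclear optimal peaks. The 140 genes of the pooled list had 119 distinct strongest summits, 0.397% of its 29970 nuclear peaks. Of all 139 pooled summits within 200 bp of a tRNA start, 41 (29.5%) were in the optimal list, against 7.37% of all nuclear pooled summits. The windows of 200 bp to either side of the 290 starts cover 107 kb once merged, and they held 38.5 optimal summits per 100 kb, against 6.55 in the like windows of protein-coding genes, 4.54 in those of other non-coding RNA genes and 1.65 over the 6 sequences. In the pooled list the same densities were 130, 34.9, 30.5 and 22.4 per 100 kb. None of the 41 optimal summits lay within 200 bp of a protein-coding start site, and 1 of the 40, beside Glu-TTC-1-5, also lay within 200 bp of the start of another non-coding gene, snoRNA:185.

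The summits stood close to the start of the gene and more often before it than after it, though only slightly so once every pooled summit was counted. Taking the nearest tRNA gene for each of the 40 optimal summits, 26 lay upstream, 7 inside the gene and 7 beyond its end, with a median position of -40 bp (a minus sign means before the first base of the gene). Of the 119 pooled summits 68 lay upstream, 21 inside and 30 beyond the end, with a median of -34 bp. In bins of 100 bp, optimal summits reached 6.55 per 100 tRNA genes in the bin just before the start and 2.41 in the bin before that. The bin just after the start held 3.1 and the bin after that 2.07. The same bins held 0.882, 1.04, 0.301 and 0.208 per 100 protein-coding genes. With every pooled summit counted, they held 18.6, 6.55, 10 and 12.8 per 100 tRNA genes, a smaller lean to the upstream side. A tRNA gene has a median length of 73 bp (71 to 186), and 37 of the 40 optimal peaks had the list's usual fixed width of 404 bp, so a peak commonly covers a whole gene with both flanks. The interval of a peak therefore does not tell the internal promoter from the upstream flank, and only the summit was used for position.

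**Figure D2:**
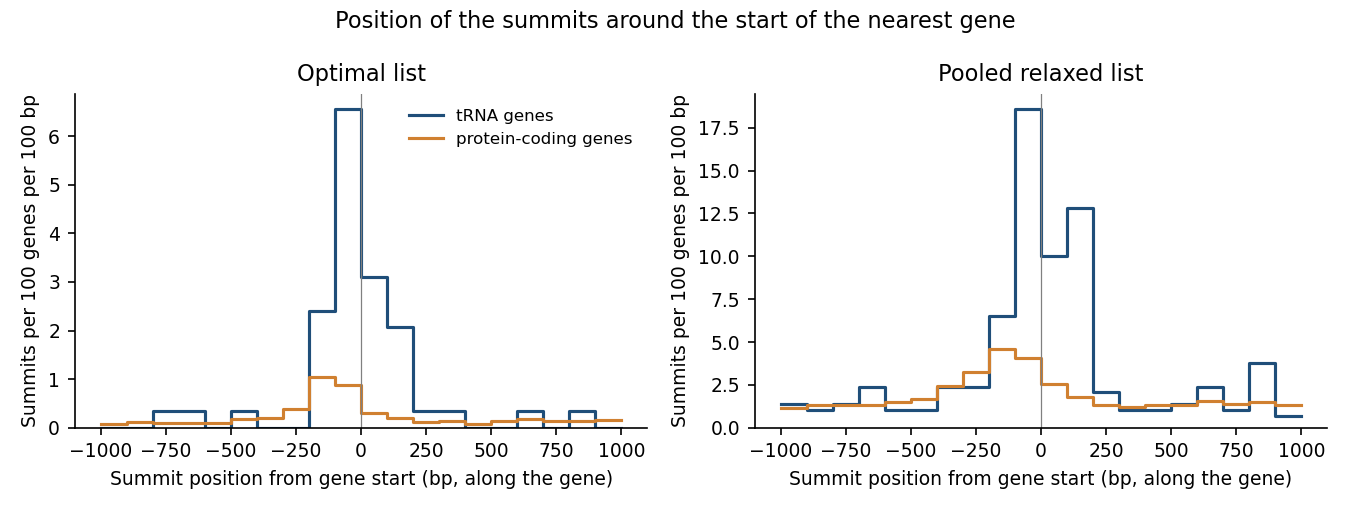
Summits per 100 genes in bins of 100 bp, by position from the start of the nearest gene along its direction (bp), for tRNA genes and protein-coding genes in the optimal list (left) and the pooled relaxed list (right). The tRNA profile is highest in the bin just before the start, at 6.55 optimal and 18.6 pooled summits per 100 genes, against 0.882 and 4.06 for protein-coding genes.

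The optimal peaks at tRNA genes were not the strongest of their list. Peak signal here is the authors' own value for a peak and was compared within a list. At the 40 tRNA summits the median signal was 100 (quartiles 89.6 and 131, range 77.7 to 311), against 110 (quartiles 90.4 and 149, range 76.9 to 780) over all nuclear optimal peaks, a ratio of medians of 0.909. The best tRNA summit ranked 70 among the nuclear optimal peaks and the median rank was 1341. The stronger 1104 peaks of the list held 15 of the 40 (37.5%), and the top 100 held 2. In the pooled list, where most peaks are weak, the median at tRNA genes was 57.8 against 22.9 over all nuclear peaks. When each replicate was used alone, taking its 2238 strongest peaks, the ratio was 0.986 in replicate 2 and 0.947 in replicate 4, so the shortfall in the optimal list was not of that size in either replicate.

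Both replicate lists put summits at tRNA genes. In the relaxed list of replicate 4, 134 tRNA genes (46.2%) had a summit within 200 bp, against 12.6% of all nuclear genes, and in that of replicate 2 there were 144 (49.7%) against 14.4%. Among the 2238 strongest peaks of each replicate the counts were 45 (15.5%) in replicate 4, against 2.45% of all nuclear genes, and 39 (13.4%) in replicate 2, against 2.71%. The genes with a relaxed summit in both replicates numbered 99, which is 73.9% of those of replicate 4 and 68.8% of those of replicate 2. For the strongest peaks the shared genes numbered 22, or 48.9% and 56.4%, beside 57.1% and 51.6% over all nuclear genes. At the other end, 107 tRNA genes had no summit in the pooled list or in either replicate list.

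Of the 53 tRNA genes with an optimal summit, 46 (86.8%) had one within 200 bp of the start in replicate 4, 48 (90.6%) in replicate 2, and 43 (81.1%) in both. The 2 with none in either, Ser-CGA-1-4 and Thr-AGT-1-5, had their optimal summit 195 and 185 bp from the start, so a small shift takes the summit out of the window. Measured from summit to summit instead, 38 of the 40 optimal summits (95%) had a replicate 4 summit within 200 bp and 40 (100%) a replicate 2 summit, beside 96.2% and 99.3% of the other 2169 nuclear optimal summits. The nearest replicate summit was a median of 38 bp away in replicate 4 and 10 bp in replicate 2, against 20 and 8 bp for the others. Signals at the 53 genes ranged from 19.4 to 108 in replicate 4 (median 45.8) and from 23.5 to 189 in replicate 2 (median 60.5). Replicate 2 gave the higher value at 34 of the 43 genes with both. It also did so at 281 of 354 other nuclear genes with an optimal summit, so this is not particular to tRNA genes. Whether the lists share a scale is not stated. Across those 43 genes Spearman's rho between replicates was 0.21, and with 1 gene per summit it was 0.119 over 34 genes. It was 0.453 over 303 protein-coding genes with an optimal summit and a summit in both replicates. The 2 replicate values of a gene need not come from the same summit. Replicate summits lay within 50 bp of each other at 55.8% of the 43 tRNA genes and 68.3% of the 303 protein-coding ones. At Glu-TTC-1-5 the replicate 4 value used was 27.4, while its summit 12 bp from the optimal one had 102. How far this bears on rho was not tested. Across the 95 tRNA genes with a pooled summit and a summit in both replicates rho was 0.607, and across 927 protein-coding genes chosen in the same way it was 0.652. These correlations are across genes, which are not replicates. Choosing genes by their optimal summit narrows the range of signals, so the values within the optimal genes and within all pooled ones are not on the same footing.

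**Figure D3:**
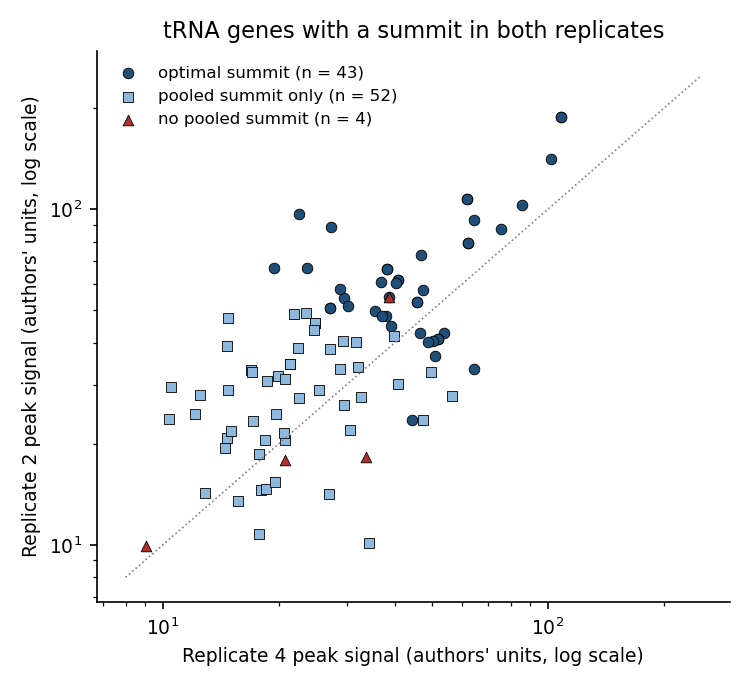
Peak signal (authors' units, log scales) of the strongest summit within 200 bp of the start in replicate 4 (horizontal) and replicate 2 (vertical), for the 99 tRNA genes with a summit in both. Each mark is 1 gene, marked by its summit in the pooled lists, and the dotted line is equal signal. Most genes with an optimal summit lie above the line, with replicate 2 higher at 34 of 43, beside 281 of 354 other nuclear genes.

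The strongest tRNA summit, with a signal of 311, stood 156 bp before Tyr-GTA-1-8, a tyrosine tRNA gene in an intron of the annotated genes CG8036 and p, 444 bp from a start site of CG8036. Replicate 2 had a summit 27 bp from it with a signal of 182, at rank 93. Replicate 4 had none nearby, its nearest summit of any strength being 15301 bp away. The summit thus rests on replicate 2 and the pooled reads. The next, with a signal of 296, lay 57 bp into Gln-TTG-1-3 and 192 bp before its neighbour Gln-TTG-1-2, both glutamine tRNA genes. There the replicates gave 108 in replicate 4, with a summit 92 bp away, and 189 in replicate 2 at the same base. The third, 247, stood 34 bp before the proline gene Pro-TGG-1-2 and within the window of the alanine gene Ala-AGC-2-2, with 102 in replicate 4 and 141 in replicate 2, at 3 and 14 bp from the pooled summit.

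The next 7 summits, each given at its nearest tRNA gene, had signals between 139 and 185. His-GTG-1-4, a histidine tRNA gene on 2R, had 185 at 40 bp before the gene, with 85.6 in replicate 4 and 103 in replicate 2. The summit of the glutamate gene Glu-TTC-1-5 (176) lay 198 bp past the start, beyond the end of the gene, and its counterparts were 102 in replicate 4, at 12 bp, and 88.8 in replicate 2, at 138 bp. The leucine gene Leu-CAG-1-3 on 3L had 173, with 61.5 and 107 in replicates 4 and 2. Glu-CTC-2-3, another glutamate gene on 3L, had 158, with 75.6 and 87.6. Ile-AAT-1-7, an isoleucine gene in an intron of ATP8A, had 151, with 64.3 and 92.9. Gln-CTG-2-3 had 145, with 48.4 and 96.8 at the nearest replicate summits. The arginine gene Arg-ACG-1-4 had 139, with 62 and 79.6, both 1 bp from the pooled summit. Replicate 4 was the lower of the replicates at 8 of the 9 summits where both had a counterpart within 200 bp, and the higher at Glu-TTC-1-5. It was also the lower at most other nuclear genes with an optimal summit.

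The weakest optimal summit at a tRNA gene had 77.7 and stood by the lysine genes Lys-CTT-1-12 and Lys-CTT-1-13, just above the weakest nuclear peak of the optimal list, 76.9. The strongest summits of tRNA genes that had no optimal one followed directly below. Thr-AGT-2-1 had 75.5, Ile-TAT-1-1 had 75.3, Ile-AAT-1-4 had 74, Asn-GTT-1-10 had 71.6 and Leu-TAG-1-2 had 70.9, and all 5 had a summit in both replicates, with 24.8 to 56.4 in replicate 4 and 27.8 to 45.8 in replicate 2. Weaker second summits at genes with an optimal one, which are not counted here, reached the same range, with 73.5 at Glu-TTC-1-5 and 72.1 at Gln-CTG-2-3. On the scale of distance, the optimal summits just inside the limit of 200 bp were those of Lys-CTT-1-12 at 199 bp, Glu-TTC-1-5 at 198 bp and Ser-CGA-1-4 at 195 bp. Just outside stood Ile-AAT-1-6 at 218 bp, Asn-GTT-1-6 at 224 bp, Gln-CTG-2-2 at 233 bp and Ala-CGC-1-2 at 243 bp. All 4 summits are already counted for a neighbouring gene, which is Ile-AAT-1-7, Lys-CTT-1-2, Gln-CTG-2-3 and Ala-CGC-1-3 in the same order.

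By anticodon, 28 of the 45 families had at least 1 gene with an optimal summit and 40 had one with a pooled summit. The families with no pooled summit were Ala-TGC, Arg-TCT, Leu-TAA, Ser-TGA and Val-TAC, each of 2 to 4 genes. Among families of 3 or more genes the highest share was that of Gln-TTG, 3 of 4 genes, followed by Arg-CCT with 2 of 3 and Glu-TTC with 3 of 6. Their Wilson intervals were wide, 30.1 to 95.4%, 20.8 to 93.9% and 18.8 to 81.2%, and the 3 Gln-TTG genes had 2 distinct summits. The lysine family Lys-CTT had a pooled summit at each of its 13 genes, with signals from 17.8 to 139, of which 4 were optimal. Replicate 2 had a summit at all 13 and replicate 4 at 7. Glu-CTC, with 13 genes, had 4 optimal and 6 pooled, and Asn-GTT, with 10, had 3 and 7. The families of 7 or more genes without any optimal summit were Gly-GCC (0 of 14, with 5 pooled, the strongest at 54.7), Trp-CCA (0 of 8, 1 pooled), Phe-GAA (0 of 8, 3 pooled), Ser-AGA (0 of 8, 3 pooled) and Cys-GCA (0 of 7, 2 pooled). The Wilson interval for 0 of 14 reaches 21.5%, above the share of all tRNA genes, so at this size a family at 0 cannot be told from the average.

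Methionine tRNAs fall into initiators (iMet-CAT), which start translation, and elongators (Met-CAT). Of 6 initiator genes 2 had an optimal and 4 a pooled summit, and of 6 elongator genes 0 and 2. The intervals of the optimal shares, 9.68 to 70% and 0 to 39%, overlap. The single gene for the selenocysteine tRNA, SeC-TCA-1-1, had a pooled summit of 57.3, with 32.2 in replicate 4 and none in replicate 2. Summed over the anticodons of an amino acid, glutamine (5 of 12 genes, 41.7%) and glutamate (7 of 19, 36.8%) had the highest optimal shares of those with 10 or more genes, and glycine (0 of 20) and serine (1 of 20, 5%) the lowest. These shares count each gene of a shared summit, as at Gln-TTG-1-2 and Gln-TTG-1-3. No family had an optimal summit at every one of its genes.

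**Figure D4:**
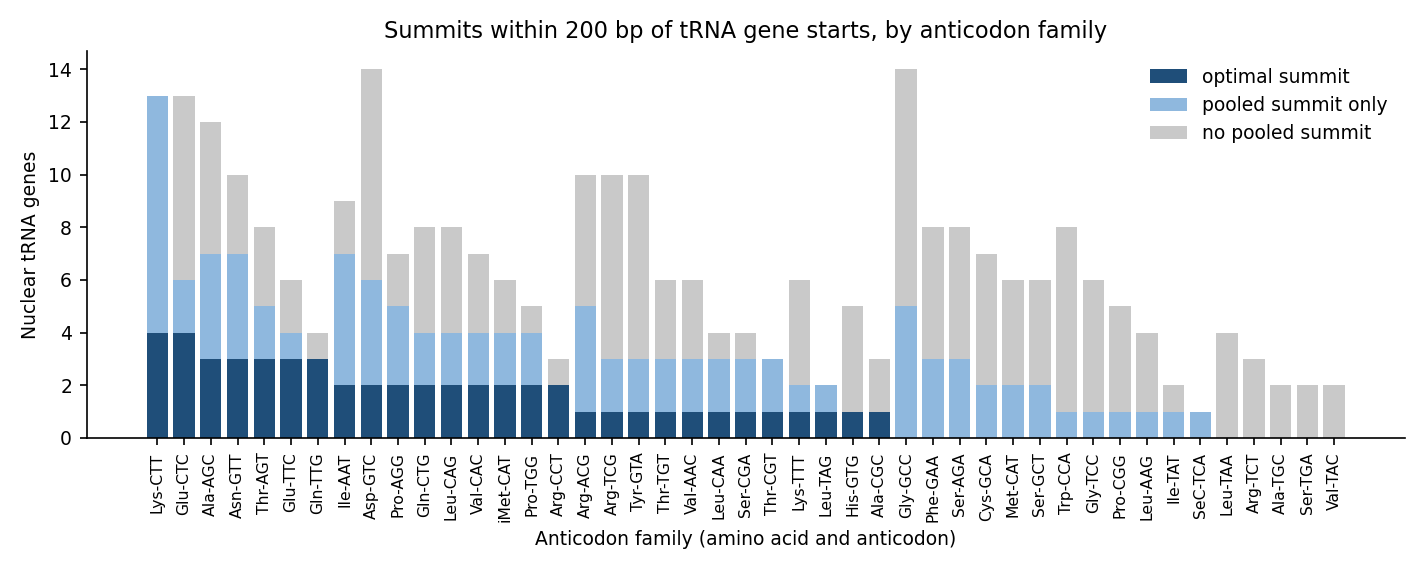
Number of nuclear tRNA genes in each of the 45 anticodon families, split by the summit within 200 bp of the gene start: optimal, pooled only, or none in the pooled list. Lys-CTT is the largest family with a pooled summit at every gene (13 of 13), and Gly-GCC the largest with no optimal one (0 of 14).

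Genes of identical sequence often differed in whether they had a summit. The 290 genes have 95 distinct sequences, and 238 genes have at least 1 identical copy, in 43 sets. In 26 of these sets some copies had an optimal summit and others had none, in 17 no copy had one, and in 0 all copies had one. In the pooled list the copies differed in this way in 34 sets. All 13 Lys-CTT genes, which are identical in sequence, had a pooled summit. Whether the sequence of the gene bears on the summits was not tested. Reads from identical copies can be placed only by their flanks, and how the authors treated reads that match several places is not given in the sources used here. The split of signal between identical copies, including the pairs shown first, is therefore uncertain. A copy elsewhere was held by 86.8% of the genes with an optimal summit, 89.7% of those with a pooled summit only and 76% of those with no pooled summit.

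By genomic cluster, joining tRNA genes whose starts lie within 5000 bp, the 290 genes formed 144 groups, of which 76 were single genes. An optimal summit was found in 33 groups (22.9%) and a pooled one in 76. Single genes had an optimal summit in 7 of 76 cases (9.21%, interval 4.53 to 17.8), genes of clusters of 2 to 4 in 26 of 142 (18.3%, interval 12.8 to 25.5), and genes of clusters of 5 or more in 20 of 72 (27.8%, interval 18.8 to 39). Genes that share a summit enlarge this difference: counted as distinct summits per 100 genes the values were 9.21, 14.1 and 18.1. By chromosome arm, the optimal share was 22.4% on 2R (22 of 98), 21.5% on 3R (17 of 79), 17.1% on 2L (7 of 41), 12.5% on 3L (6 of 48) and 4.17% on X (1 of 24). All annotated genes of the X had 1.67%, below the other arms as well.

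The largest clusters were 2 of 11 genes and 3 of 7 genes, and all 5 are described. The cluster of 11 on 3R (chr3R:17617761-17631750, 14 kb) lies between protein-coding genes except for Ala-AGC-2-5 and Pro-TGG-1-3 in an intron of CG43175. It holds valine, proline, alanine and threonine tRNA genes, and 6 of its 11 genes shared 4 optimal summits. These stood at Val-CAC-1-1 (90.1), at Ala-AGC-2-2 and Pro-TGG-1-2 (247), at Ala-AGC-2-3 (98.1) and at Thr-AGT-1-5 and Thr-AGT-1-6 (92). The last 3 genes of the cluster, Val-AAC-1-2, Ala-AGC-2-5 and Pro-TGG-1-3, had no pooled summit. The 11-gene cluster on 2R (10.2 kb) begins in an intron of EcR, the ecdysone receptor gene, and reaches into the space beyond it. Its optimal summits were at Lys-CTT-1-2 inside EcR (86.9) and between Lys-CTT-1-5 and Arg-ACG-1-4 outside it (139), and 9 of its 11 genes had a pooled summit. Of the clusters of 7 genes, that of initiator methionine and glutamate tRNA genes on 2R (3.34 kb) had 5 genes at 3 optimal summits, at iMet-CAT-1-1 and iMet-CAT-1-2 (93.2), at Glu-TTC-1-5 (176) and at Glu-TTC-1-6 and Glu-CTC-2-1 (94.4). All 7 of its genes had a pooled summit. That of isoleucine and leucine tRNA genes in an intron of ATP8A, also on 2R (2.51 kb), had 1 gene with an optimal summit, Ile-AAT-1-7 (151), and 6 with a pooled one. That of arginine and serine tRNA genes on X (2.47 kb) had 0 with an optimal summit and 3 with a pooled one, the strongest at 38.4 between Arg-TCG-2-1 and Ser-CGA-1-1. Among the other clusters of 5 or more genes, those of 6 Glu-CTC genes on 3L and of 6 Arg-ACG and Asn-GTT genes on 3R had 0 optimal summits, with 1 and 2 genes at a pooled one.

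**Figure D5:**
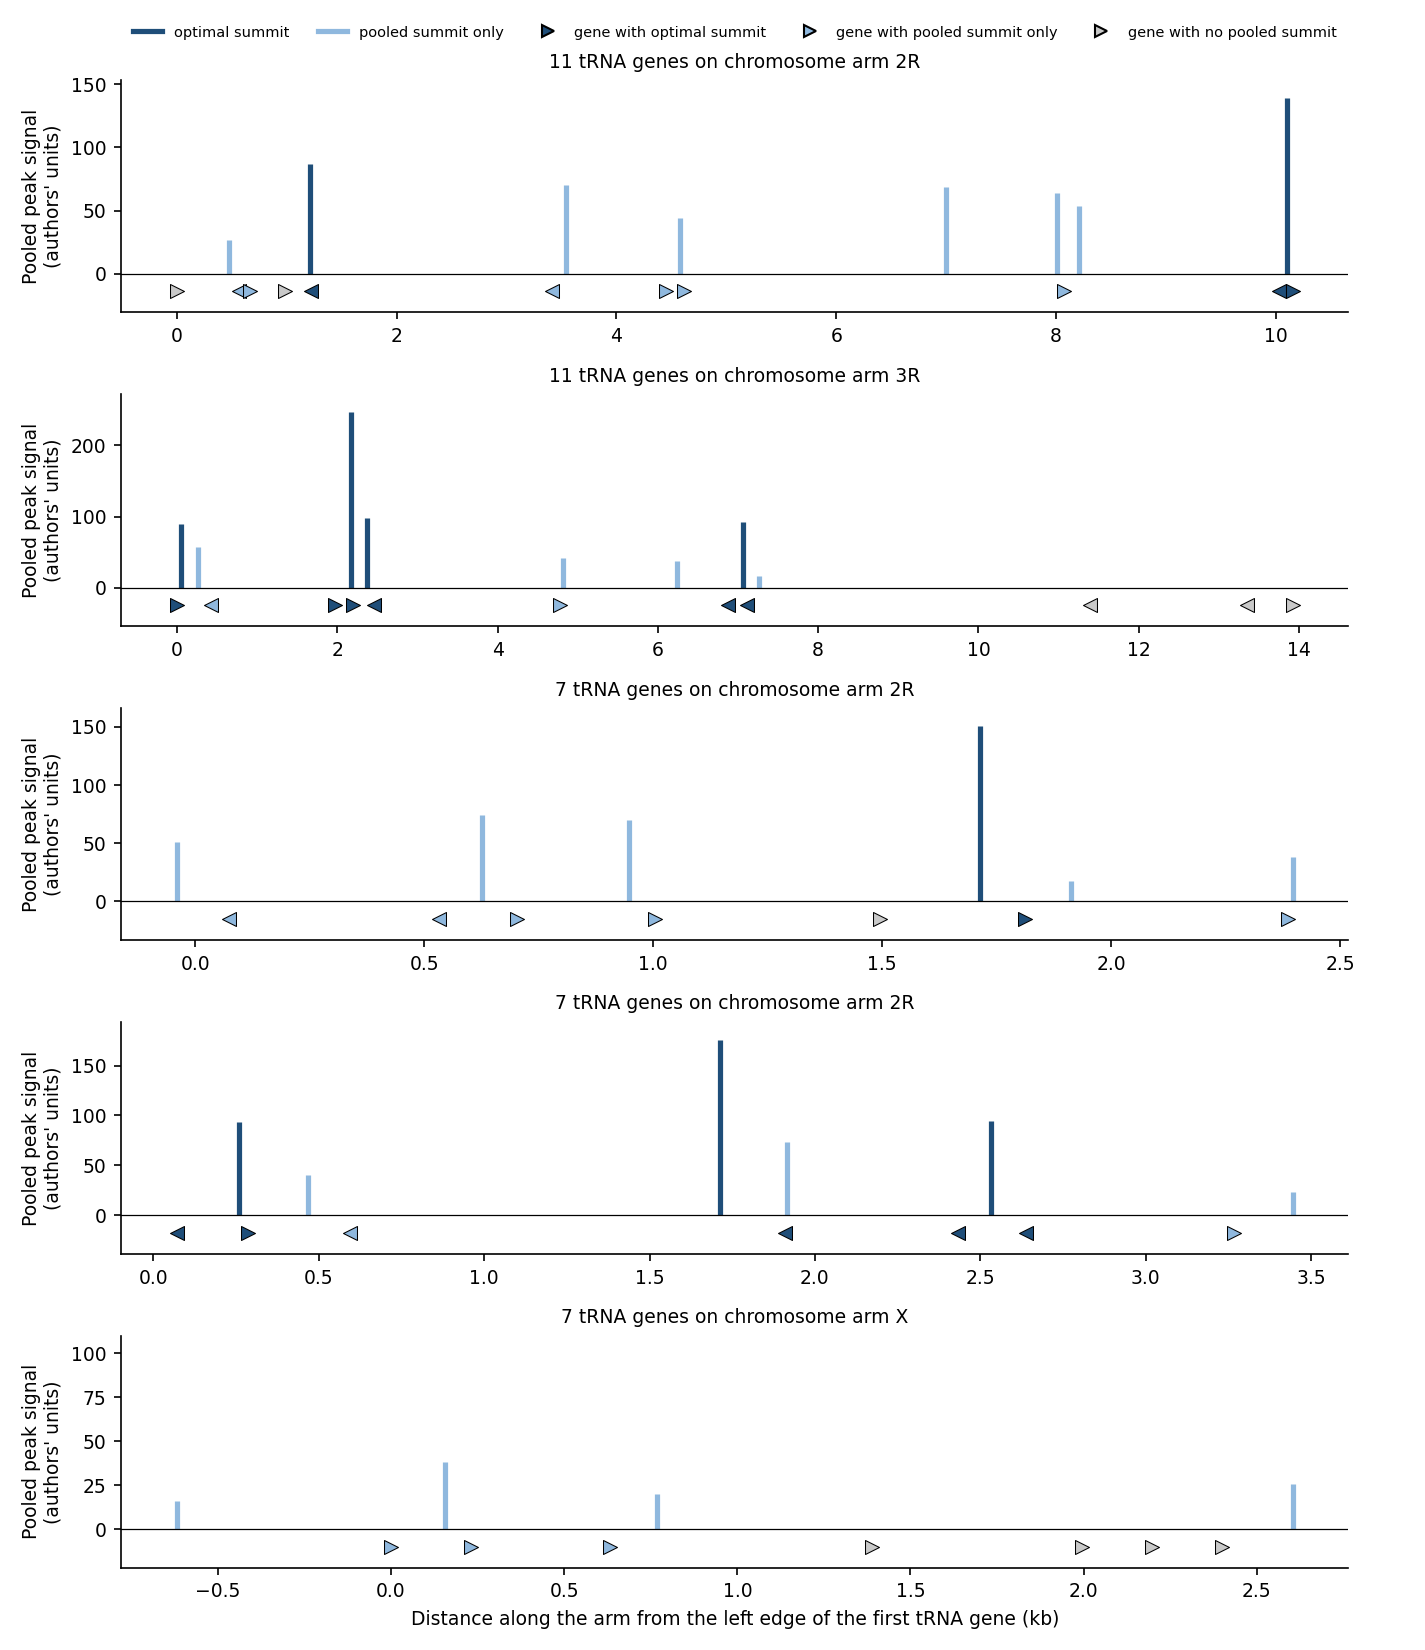
The 5 tRNA gene clusters with 7 or more genes, by distance along the chromosome arm (kb, each cluster on its own scale). Vertical lines are summits at their pooled signal (authors' units), triangles are genes pointing in the direction of transcription; the signal is highest at 247 in the 3R cluster, whose last 3 genes have no pooled summit, and the X cluster has no optimal one.

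Closely spaced genes often had a common summit. There were 74 pairs of tRNA genes with starts within 400 bp of each other. Of 17 divergent pairs, 6 had an optimal summit, and in all 6 it lay between the starts, within 200 bp of both. Of 15 convergent pairs 6 had one, and in 2 of them an optimal summit lay within 200 bp of both starts. Of 42 pairs in tandem 12 had one, and in 6 of them it lay within 200 bp of both. The median distance between starts was 178 bp in divergent, 308 bp in convergent and 277 bp in tandem pairs. Under the rule of 200 bp, closer starts more readily share a summit, so orientation cannot be told apart from spacing here. Another tRNA start within 400 bp was found for 64.2% of the 53 genes with an optimal summit, for 36.8% of the 87 genes with a pooled summit only and for 40.7% of the 150 genes with none. With starts this close, a summit within 200 bp of one gene has a second chance to lie within 200 bp of another, so this share follows in part from the rule that assigns summits.

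Genes with and without a summit were alike in most of the other measures. The median distance to the nearest protein-coding start site was 2368 bp for genes with an optimal summit, 3775 bp for those with a pooled summit only and 2416 bp for those with none, and a protein-coding start lay within 500 bp of 17%, 6.9% and 11.3% of them. Leaving out all tRNA genes with such a start within 500 bp, 44 of 258 (17.1%) had an optimal summit. Genes between protein-coding genes had an optimal summit in 31 of 156 cases (19.9%), genes in introns in 19 of 127 (15%) and genes overlapping exons in 3 of 7, which were Pro-AGG-1-3 and Pro-AGG-1-4 in osp and Arg-TCG-2-4 in pyd. The GC content within 200 bp of the start had medians of 37.2%, 37.4% and 37.9% in the same order of groups.

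The motifs searched did not separate the groups. The strict B box core GTTCGANTC, on the strand of the gene, was held by 37.7% of genes with an optimal summit, 36.8% of those with a pooled summit only and 40% of those with none. The looser core GTTCNANNC, chosen after the strict one had been counted, was held by 90.6%, 92% and 95.3%, and by 93.4% of all tRNA genes. GAGAG, on either strand within 200 bp of the start, was present at 45.3%, 44.8% and 43.3%, beside 37.1% of all nuclear gene starts. At protein-coding starts with an optimal summit it was present at 60.4%, against 37.5% of all protein-coding starts. CACGTCA, a core sequence for CREB3 factors, searched on both strands in the same windows, was present at 0% of the tRNA genes with an optimal summit, 2.3% of those with a pooled summit only and 1.33% of those with none, and at 1.96% of all nuclear gene starts. Protein-coding starts with an optimal summit held CACGTCA at 3.34%, against 2.04% of all protein-coding starts. A match is a description of the letters, not a binding site, and 0 of 53 says only that these letters are not in these windows.

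The genes for the machinery that makes and matures tRNAs did not follow the tRNA genes. Of 22 genes for subunits and factors of RNA polymerase III, 0 had an optimal summit within 200 bp of a start site and 2 (9.09%) a pooled one, beside 3.61% and 15.4% of protein-coding genes. The 2 were Polr2H (62.5, with 21.1 in replicate 4 and 36.6 in replicate 2) and Polr2L (53, with 22 and 33.5), both subunits that the RNA polymerases have in common. Of 29 genes for tRNA maturation, 0 had an optimal and 3 (10.3%) a pooled summit. These were the splicing endonuclease subunits Tsen15 (70.8) and Tsen54 (21.2) and RNaseZ (34.7), which cuts the 3′ end of the precursor. Other genes transcribed by RNA polymerase III have different promoters. A list of 9 genes outside the 5S rRNA genes was taken as such, and the polymerase of each was not checked. Among these 9, 1 had an optimal summit, the 7SK RNA gene snRNA:7SKa (92, at 92 bp before the gene). This gene had 42.6 in replicate 2 and none within 200 bp in replicate 4. None of the 100 annotated 5S rRNA genes, 4 of them pseudogenes, had a summit in any of the 4 lists. How the authors treated reads that match several places is not given, so for such repeated genes 0 does not show absence of binding. The same holds for the 0 of 99 rRNA genes given above.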

How the data were processed

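The peak lists were made by the authors and deposited as narrowPeak files on dm6. Per the deposited notes, relaxed peaks were called against a control for each replicate and for the pooled reads, and an IDR threshold then gave the optimal list. Which aligner, caller and cutoff were used is not given in the sources used here. The deposited signal of a peak is the authors' value, whose scaling is not stated, and it was used to rank peaks within a list. The deposited −log10 q-value has a ceiling and was not used to rank. Read depth is unknown, and the dm3 lists were not used here.

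The summit of each peak was compared with the first base of each gene (Ensembl 115, transposable elements left out) at 200 bp, with Python 3.11.15 and pandas 2.3.3, checked on simulated peaks. For each gene and list the strongest summit in the window was kept. The 2238 strongest peaks of a replicate stand for it at the length of the optimal list. With 1 group no test between groups was possible, so counts carry Wilson 95% intervals and no p-value. The genes named are the 10 with the strongest optimal summits, the 5 strongest outside that list, those with an optimal summit in the largest clusters (3 by the rule, 5 with the ties at the third place kept) and up to 4 per list; others were chosen after their values were seen. The members and lists were chosen with earlier results of these data known. Of the names in the maturation list, 2 (Adat2 and Adat3) matched no symbol and were left out.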

Additional observations from a re-analysis of the deposited data

How the results depend on the processing

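Counts within 1.5 times the reported one, and ratios within the SD of the 2 replicate values (0.0281), were taken as unmoved: of 39 alternative values, 31 were and 8 were not. With a limit of 100 bp the tRNA genes with an optimal summit fell from 53 to 30 (10.3%, against 1.28% of all nuclear genes) and those with a pooled summit from 140 to 87 (30% against 6.9%). With the stronger 1119 of the 2238 optimal peaks alone, 19 genes (6.55% against 1.27%), 15 summits, 15 clusters and 14 families were left; fewer peaks enter by construction. With 1 replicate alone, genes ranged from 39 to 45, summits from 30 to 35, clusters from 25 to 28, families from 22 to 24, pooled genes from 134 to 144 and the ratio of median signals from 0.947 to 0.986 (0.909 pooled); the cause was not tested. No paired analysis was possible because the labels give 1 group only. Depth is unknown, so a gene without a summit cannot be called unbound.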

Other observations

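The mitochondrial tRNA genes, which are not members of the set described, stood apart in scale. Of 22 mitochondrial tRNA genes 9 had an optimal summit within 200 bp of the start, with signals from 1797.7 to 36758.9, above the highest signal of any nuclear optimal peak (780). The mitochondrial genome is compact and held 29 optimal peaks, so the share is not comparable with that of nuclear genes.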
